A study of Homo sapiens with 6 samples.

Results

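The 10 genes described here are the CCN genes CYR61, CTGF, NOV, WISP1 and WISP2 (older symbols of CCN1 to CCN5) and the YAP pathway genes ANKRD1, AMOTL1, AMOTL2, LATS1 and LATS2. They were chosen by name, with earlier results of these data known. Their Ensembl identifiers were matched to symbols of GENCODE release 29, 10 of 60554 identifiers in the files. All 10 passed the filter on low counts, which 18683 genes passed. The RNA came from Daoy, an established human cell line derived from a medulloblastoma of the cerebellum. In the ZFmut group (3 libraries) the cells overexpressed ZBTB7B carrying R363L, a substitution in a zinc finger, and in the WT group (3 libraries) they overexpressed the wild-type protein. Lentivirus brought in the gene in both groups (multiplicity of infection 15, 72 hr) during 4 days of culture in medium with 10% serum. No library without the transgene was analysed, the cells keep their own ZBTB7B gene, and the promoter of the transgene is not given in the sources used here. ZBTB7B (ThPOK) is a transcription factor with zinc fingers that directs developing T cells to the CD4 fate.

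CCN proteins are secreted into the extracellular matrix, where they bind integrins, heparan sulfate proteoglycans and growth factors and change how cells adhere and respond to signals. The Hippo pathway is a kinase cascade in which LATS1 and LATS2 phosphorylate the coactivators YAP and TAZ and hold them outside the nucleus. When this restraint is low, YAP and TAZ enter the nucleus and act through TEAD transcription factors on genes such as CTGF, CYR61 and ANKRD1. LATS2 and AMOTL2 are themselves targets of YAP and restrain it in turn. In the mouse cerebellum, Yap is known to act downstream of Sonic hedgehog in the precursors of granule neurons, the cells from which hedgehog-type medulloblastoma arises.

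Read counts on genes were 22236214 to 102730428 in the ZFmut libraries and 28429913 to 56873989 in the WT libraries, and each of CYR61, CTGF, ANKRD1, AMOTL1, AMOTL2, LATS1 and LATS2 had at least 429 reads in every library. ZBTB7B itself reached 555, 547 and 627 CPM (counts relative to a common library size, after TMM scaling) in ZFmut replicates 1 to 3, against 899, 863 and 951 CPM in WT replicates 1 to 3. The groups did not overlap, and ZFmut libraries held 1.57-fold less ZBTB7B transcript, so the substitution and the amount of ZBTB7B cannot be told apart in any difference below. The 7 markers of neural cells and hedgehog-type medulloblastoma summed to 947 to 981 CPM in ZFmut and 883 to 920 CPM in WT. Most of this sum was VIM, at 633 to 705 CPM in ZFmut and 659 to 667 CPM in WT. VIM, NES, GLI2, PTCH1, SOX2 and GLI1 were present in every library, while ATOH1 had 8 reads in all. SOX2, at 35.7 to 41.3 CPM in ZFmut against 19.2 to 23.0 CPM in WT, and NES were called higher in ZFmut, GLI1 (8.08 to 8.74 CPM in ZFmut against 10.2 to 11.6 CPM in WT) and PTCH1 were called lower, and VIM and GLI2 did not pass. Markers of other cell types summed to 0.892 to 0.96 CPM in ZFmut against 3.04 to 3.87 CPM in WT for 3 genes of epithelium, and to 2.45 to 2.69 CPM in ZFmut against 1.17 to 1.52 CPM in WT for 3 genes of endothelium. The sums were 0.223 to 0.363 CPM in ZFmut against 0.229 to 0.38 CPM in WT for 4 genes of blood, and 4.03 to 4.76 CPM in ZFmut against 5.7 to 7.29 CPM in WT for 3 genes of fibroblasts. Of these markers of other types, CDH1 and LUM were called lower in ZFmut and PECAM1 was called higher, and CDH5, PTPRC, CD3E and CD68 were at 0 in at least 1 library. Their part in the results was not tested.

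CYR61, CTGF, ANKRD1 and LATS2 were lower with ZFmut ZBTB7B than with WT ZBTB7B, by 1.23- to 1.45-fold. WISP2 was 5.08-fold higher with ZFmut, from a low level. NOV, WISP1, AMOTL1, AMOTL2 and LATS1 did not pass the threshold, an adjusted p of 0.05 in edgeR's quasi-likelihood test with Benjamini-Hochberg adjustment over all genes. The 5 called members of 10 stand beside a background of 35.6% of tested genes called in either direction. The 4 lower members stand beside a background of 18.4% of tested genes lower in ZFmut, and the 1 higher member beside 17.2%. The median log2 difference of the 10 was -0.20, against -0.004 over all genes tested. Counts of reads in bulk RNA cannot tell fewer cells of a type from less RNA per cell. The labels do not say whether replicates are separate cultures, and the p-values therefore rest on a spread between libraries that may be only technical.

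**Figure D1:**
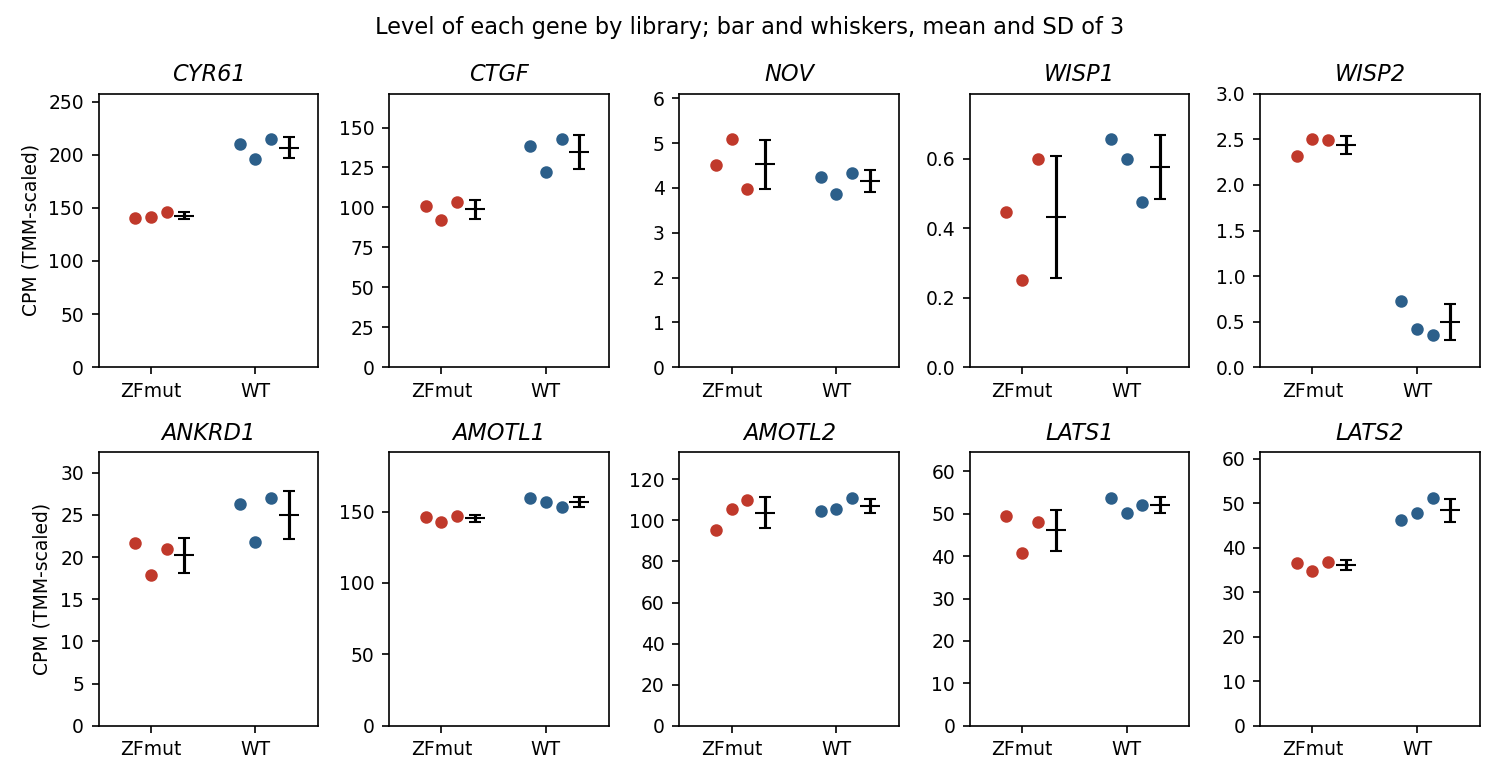
Level of each of the 10 genes in CPM (linear axes from 0) in the 3 ZFmut and 3 WT libraries; points are replicates 1 to 3 from left to right, and the bar with whiskers is the mean and SD. The ZFmut points of CYR61, CTGF, ANKRD1, LATS2, AMOTL1 and LATS1 lie below all WT points, and those of WISP2 lie above them. The groups did not overlap for 47.2% of all tested genes, and AMOTL1 and LATS1 did not pass the threshold.

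TEAD factors bind the letters GGAATG, known as the core of the MCAT element, and the promoters of CTGF and ANKRD1 are textbook examples. RefSeq promoters (GRCh38.p14) were matched for CTGF, ANKRD1, LATS1, LATS2, AMOTL1 and AMOTL2, 6 of the 10 genes with 8 start sites, and not for CYR61, NOV, WISP1 and WISP2. Windows from 250 bases before to 30 bases after the start were searched for GGAATG on both strands (CATTCC on the strand shown). Of all 35116 windows of this length in the table, several per gene in some cases, 13.3% hold it. It was found in 4 of the 8 windows, and these are shown because 3 of them belong to genes that were lower in ZFmut and 1 to a gene that did not pass. All are given 5′ to 3′ on the gene's strand with the motif in capitals; they lie at chr6:131951343-131951622 for CTGF, chr10:90921058-90921337 for ANKRD1, chr13:21061557-21061836 for LATS2 and chr3:134374418-134374697 for AMOTL2, all on the minus strand.
CTGF: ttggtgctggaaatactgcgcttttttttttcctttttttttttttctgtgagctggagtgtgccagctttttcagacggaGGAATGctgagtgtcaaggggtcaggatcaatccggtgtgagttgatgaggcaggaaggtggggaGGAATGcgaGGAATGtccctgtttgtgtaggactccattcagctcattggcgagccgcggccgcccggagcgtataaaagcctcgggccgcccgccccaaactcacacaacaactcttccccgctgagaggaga
ANKRD1: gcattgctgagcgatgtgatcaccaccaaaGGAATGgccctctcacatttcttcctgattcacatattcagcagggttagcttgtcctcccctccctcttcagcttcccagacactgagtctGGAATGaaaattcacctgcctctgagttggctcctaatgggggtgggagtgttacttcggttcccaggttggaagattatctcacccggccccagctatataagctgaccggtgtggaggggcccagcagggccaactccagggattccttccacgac
LATS2: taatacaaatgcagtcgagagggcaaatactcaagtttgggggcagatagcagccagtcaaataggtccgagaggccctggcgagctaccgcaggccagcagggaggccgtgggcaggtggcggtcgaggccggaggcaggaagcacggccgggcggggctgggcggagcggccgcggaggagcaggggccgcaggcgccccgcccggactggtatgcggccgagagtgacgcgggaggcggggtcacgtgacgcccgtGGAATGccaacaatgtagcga
AMOTL2: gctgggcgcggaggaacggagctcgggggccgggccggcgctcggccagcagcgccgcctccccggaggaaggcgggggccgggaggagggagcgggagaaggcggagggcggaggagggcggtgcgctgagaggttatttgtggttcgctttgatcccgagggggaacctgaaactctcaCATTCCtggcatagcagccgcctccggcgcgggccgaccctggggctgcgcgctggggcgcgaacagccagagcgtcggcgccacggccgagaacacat

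The CTGF window holds the motif at 3 places, which begin at positions -169, -104 and -95 from the start site. The ANKRD1 window holds it at -220 and -128, the LATS2 window at position 10 of the transcript, and the AMOTL2 window on the other strand at -69. The windows of AMOTL1, of both LATS1 start sites and of the upstream AMOTL2 start site hold no match. A match describes the letters in this window and not a bound site. Genes with the motif thus include CTGF, ANKRD1 and LATS2, which were lower in ZFmut, and AMOTL2, whose log2 difference was -0.04.

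CYR61 (CCN1), an integrin ligand made within minutes of growth factor or mechanical stimulation, was the most abundant CCN transcript. The gene (ENSG00000142871.15) lies on GRCh38 chromosome 1 from 85580761 to 85583962, plus strand. It had 140.1, 142 and 146 CPM in ZFmut replicates 1 to 3, against 209.7, 196 and 215 CPM in WT replicates 1 to 3. The highest ZFmut library lay well below the lowest WT library, and the groups did not overlap. The means were 143 ± 3.33 CPM in ZFmut and 207 ± 9.76 CPM in WT (SD, n = 3 each). The log2 difference of CYR61 was -0.53 ± 0.05 (SE), with an edgeR adjusted p of 3.22e-06. With no overlap, CYR61 was by necessity lower in all 3 comparisons of libraries with the same replicate number. It passed in all 16 alternative fits.

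CTGF (CCN2), a matrix protein widely used as a readout of YAP and of TGF-beta, came next. The gene (ENSG00000118523.5) lies on chromosome 6 from 131948176 to 131951373, minus strand, and 8.3% of its exonic sequence overlaps an annotated gene on the other strand. It had 101, 92.3 and 104 CPM in ZFmut replicates 1 to 3, against 139, 122 and 143 CPM in WT replicates 1 to 3. Replicate 2 was the lowest library of both groups, yet the groups did not overlap. The log2 difference was -0.44 ± 0.06 (SE, edgeR adjusted p = 0.000106), with means of 98.9 ± 5.86 CPM in ZFmut and 135 ± 10.8 CPM in WT (SD, n = 3 each). It passed in all 16 alternative fits, with log2 differences from -0.51 to -0.39. Its promoter window is the one with 3 matches to the TEAD core.

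WISP2 (CCN5) is a CCN protein without the C-terminal module that the other family members share. The gene (ENSG00000064205.10) lies on chromosome 20 from 44714844 to 44728509, plus strand, with no exonic overlap with another annotated gene. Its reads numbered 52, 60 and 254 in ZFmut replicates 1 to 3, against 21, 24 and 11 in WT replicates 1 to 3. These gave 2.32, 2.50 and 2.49 CPM in ZFmut, against 0.725, 0.422 and 0.348 CPM in WT. Every ZFmut library lay above every WT library, and the ZFmut libraries were close to each other. The log2 difference was 2.34 ± 0.22 (SE, edgeR adjusted p = 1.85e-06), and 16 tested genes (0.0856%) were called with a difference at least as large in this direction, WISP2 included. Leaving out 1 library at a time gave 2.19 to 2.64, and WISP2 was called each time.

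NOV (CCN3), a CCN protein that binds NOTCH1 and integrins, and WISP1 (CCN4), first described as a target of Wnt signalling, showed no such separation. NOV (ENSG00000136999.4, chromosome 8, 119416306 to 119424353, plus strand) had 4.51, 5.09 and 3.99 CPM in ZFmut against 4.25, 3.87 and 4.34 CPM in WT. Its groups overlapped, and the log2 difference of 0.10 ± 0.13 did not pass (SE, edgeR adjusted p = 0.588). It was 0.020 without ZFmut replicate 2, 0.042 without WT replicate 2, 0.22 without ZFmut replicate 3 and from 0.098 to 0.13 without each of the others, and did not pass in any of these fits. WISP1 (ENSG00000104415.13, chromosome 8, 133191039 to 133231690, plus strand) had only 10, 6 and 61 reads in ZFmut replicates 1 to 3, against 19, 34 and 15 reads in WT replicates 1 to 3. At -0.23 ± 0.31 its log2 difference was smaller than its error (SE, edgeR adjusted p = 0.607), it moved to -0.74 without ZFmut replicate 3 and to -0.045 without ZFmut replicate 2, and a change of WISP1 was not detectable at this depth. WISP3, the remaining CCN gene, had 17 reads over the ZFmut libraries and 17 over the WT libraries and was below the filter.

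Summed over the 6 CCN genes, the libraries held 248, 242 and 257 CPM in ZFmut replicates 1 to 3, against 354, 323 and 363 CPM in WT replicates 1 to 3. CYR61 and CTGF made up 96.7 to 97.2% of these reads in ZFmut and 98.4 to 98.5% in WT. WISP2 took 0.934 to 1.035% of them in ZFmut and 0.096 to 0.205% in WT. The sum therefore follows CYR61 and CTGF, and the rise of WISP2 adds little to it.

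ANKRD1, an ankyrin-repeat protein of muscle and a standard YAP target, was lower with ZFmut, but less firmly than CYR61 and CTGF. The gene (ENSG00000148677.6) lies on chromosome 10 from 90912096 to 90921276, minus strand. It had 21.7, 17.9 and 21.0 CPM in ZFmut replicates 1 to 3, against 26.2, 21.8 and 27.1 CPM in WT replicates 1 to 3. The highest ZFmut value and the lowest WT value nearly touched. The log2 difference of -0.30 ± 0.09 passed (SE, edgeR adjusted p = 0.0207). Its call ended when WT replicate 1, WT replicate 3 or ZFmut replicate 2 was left out, at -0.25, -0.24 and -0.22 with edgeR adjusted p of 0.0615, 0.102 and 0.101, and after thinning every library to the smallest total (-0.24, 0.139).

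LATS1 and LATS2 are the paralogous kinases that phosphorylate YAP and TAZ. LATS2 (ENSG00000150457.8, chromosome 13, 20973032 to 21061547, minus strand) had 36.6, 34.8 and 36.8 CPM in ZFmut replicates 1 to 3, against 46.2, 47.9 and 51.3 CPM in WT replicates 1 to 3. All ZFmut libraries lay below all WT libraries, the log2 difference was -0.42 ± 0.06 (SE, edgeR adjusted p = 7.79e-05), and it passed in all 16 alternative fits. LATS1 (ENSG00000131023.12, chromosome 6, 149658153 to 149718256, minus strand) had 49.5, 40.6 and 48.0 CPM in ZFmut replicates 1 to 3, against 53.8, 50.2 and 52.1 CPM in WT replicates 1 to 3. Its groups did not overlap, as for 47.2% of all tested genes, but its log2 difference of -0.17 ± 0.07 missed the threshold (SE, edgeR adjusted p = 0.072). LATS1 passed with the replicate number as a block (-0.18, edgeR adjusted p = 0.00194), without ZFmut replicate 1 (-0.20, 0.0243) and after thinning (-0.22, 0.0355). Without ZFmut replicate 2 it was at -0.089 (edgeR adjusted p = 0.287). With the correction for GC and length it was at -0.05 (edgeR adjusted p = 0.467) and with the block added to that correction at -0.056 (0.32), and transcripts of LATS1 are the poorest in GC of the 10 genes, at 39.7%.

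AMOTL1 and AMOTL2 are angiomotin-like scaffold proteins that bind YAP and hold it at junctions and actin filaments. AMOTL1 (ENSG00000166025.17, chromosome 11, 94706431 to 94876753, plus strand) had 146, 142 and 147 CPM in ZFmut replicates 1 to 3, against 159.8, 157 and 153 CPM in WT replicates 1 to 3. The ZFmut libraries were all below the WT libraries by a small margin, and the log2 difference of -0.11 ± 0.05 did not pass (SE, edgeR adjusted p = 0.105). It passed with the replicate block (-0.11, edgeR adjusted p = 0.0125), with GC and length correction (-0.10, 0.0424) and with both (-0.10, 0.0194). AMOTL2 (ENSG00000114019.14, chromosome 3, 134355874 to 134375479, minus strand) had 95.3, 106 and 110.03 CPM in ZFmut replicates 1 to 3, against 105, 106 and 111 CPM in WT replicates 1 to 3. These groups overlapped, and the log2 difference was -0.04 ± 0.06 (SE, edgeR adjusted p = 0.604). AMOTL2 has the highest GC content of the 10, 56.7%, and GC and length correction gave -0.17 (edgeR adjusted p = 0.00181), whereas leaving out ZFmut replicate 1 turned the direction to 0.03 (edgeR adjusted p = 0.724).

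**Figure D2:**
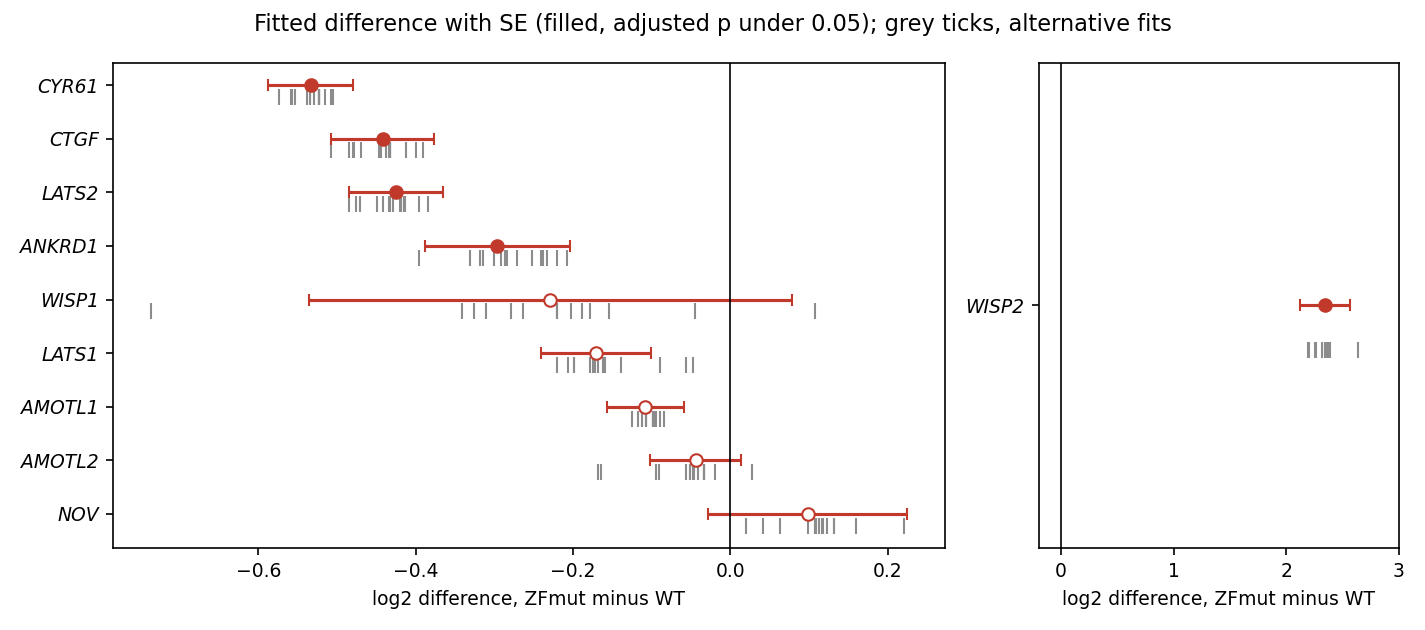
Log2 difference of each gene, ZFmut minus WT, with its SE (red, filled where edgeR's adjusted p is under 0.05) and the values of the alternative fits (grey ticks); WISP2 has its own axis. CYR61, CTGF, LATS2 and ANKRD1 lie from -0.53 to -0.30, AMOTL2 lies at -0.04, NOV at 0.10, and WISP2 lies at 2.34.

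Per kilobase of exon, which allows levels of different genes to be compared, the order of the 8 most abundant members was the same in both groups. CYR61 led, with 58.1 ± 1.35 CPM per kilobase in ZFmut and 84.2 ± 3.98 in WT (SD, n = 3 each). CTGF followed with 42.3 ± 2.51 in ZFmut and 57.6 ± 4.6 in WT, and then came AMOTL2, AMOTL1, ANKRD1, LATS2, LATS1 and NOV. Each of these lay above the next in every library of its group. At the low end, WISP2 stood above WISP1 in ZFmut, with 0.49 ± 0.0207 against 0.0832 ± 0.0337 CPM per kilobase. In WT the values of WISP2 and WISP1, 0.1 ± 0.0401 and 0.111 ± 0.0179, did not differ beyond their spread. These levels use all annotated exons of a gene and are lowered for genes with long exons that the cells do not use.

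Ratios of reads between related genes within a library do not depend on the scaling of libraries. The LATS2 to LATS1 ratio was 0.74, 0.855 and 0.766 in ZFmut replicates 1 to 3, against 0.858, 0.955 and 0.985 in WT replicates 1 to 3. The groups just failed to overlap, with a log2 difference of -0.245 (two-sided exact permutation p = 0.1, the smallest that 3 against 3 libraries allow; 0.3 adjusted over the 3 ratios). The AMOTL2 to AMOTL1 ratio differed by 0.06 on the log2 scale (two-sided exact permutation p = 0.6) and the CTGF to CYR61 ratio by 0.09 (p = 0.3; 0.6 and 0.45 adjusted), and both overlapped between groups. The ratios of CTGF to CYR61 were 0.652 to 0.719 in ZFmut and 0.625 to 0.665 in WT, and those of AMOTL2 to AMOTL1 were 0.653 to 0.748 in ZFmut and 0.655 to 0.727 in WT. With GC and length correction, the fitted log2 differences of LATS2 and LATS1 differed by -0.429, and those of AMOTL2 and AMOTL1 by -0.068, the opposite direction to their ratio of reads.

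**Figure D3:**
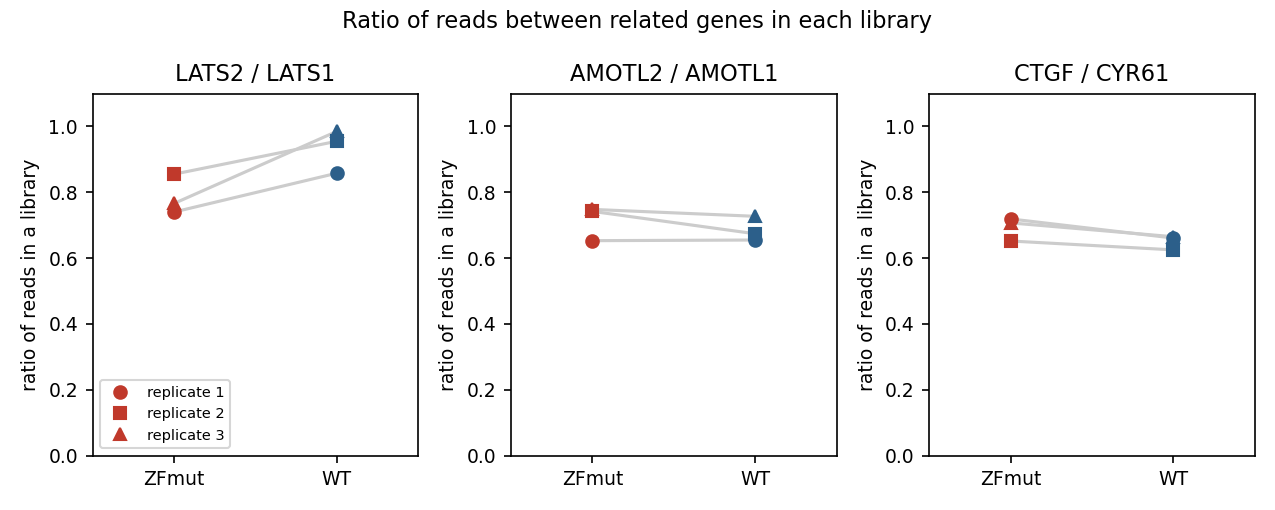
Ratio of reads between related genes in each library (linear axes from 0), ZFmut left and WT right, with grey lines between libraries of the same replicate number. LATS2 relative to LATS1 is lower in ZFmut in each of the 3 comparisons, from 0.74 to 0.855 in ZFmut against 0.858 to 0.985 in WT.

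Of the coactivators themselves, the transcript of TAZ was lower with ZFmut and that of YAP did not pass. Of 10 genes of YAP, TAZ, TEAD and the VGLL cofactors that compete for TEAD, 9 were tested, of which 1 was higher, 4 were lower and 4 did not pass. The called share was 55.6%, against 35.6% over all genes tested. WWTR1, the gene of TAZ, was lower at 78.5 ± 2.49 CPM in ZFmut against 99.1 ± 2.45 CPM in WT (log2 difference -0.34 ± 0.05 SE, edgeR adjusted p = 0.000108). YAP1 had 129 ± 3.16 CPM in ZFmut and 140.3 ± 4.31 CPM in WT, a log2 difference of -0.12 ± 0.05 that missed the threshold (edgeR adjusted p = 0.0733). It passed with the replicate block (edgeR adjusted p = 0.00389) and with the stricter filter (0.046), it was at -0.053 after GC and length correction (0.346), and 10.0% of its exonic sequence overlaps a gene on the other strand. VGLL3 had the largest difference of these, -0.72 ± 0.08 (edgeR adjusted p = 5.52e-06).

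Among the TEAD genes, TEAD4 was higher in ZFmut by 0.31 ± 0.08 and TEAD2 lower at -0.23 ± 0.05 (edgeR adjusted p = 0.00892 and 0.00359). With ZFmut replicate 2 or 3 left out, TEAD4 was at 0.24 and 0.29 with edgeR adjusted p of 0.0534 and 0.0536, so that no gene of the list was then higher. The GC and length correction put it at 0.16 (0.0199). TEAD1 at -0.04 and TEAD3 at 0.03 did not pass, and both turned direction after GC and length correction, to 0.07 and -0.12. VGLL4, at -0.18, lost its call in 5 of the 6 fits that left out a library, all but that without ZFmut replicate 2, with log2 differences over the 6 fits from -0.21 to -0.11 and edgeR adjusted p up to 0.122. It also missed the threshold with RLE scaling, DESeq2, no filter and thinning (adjusted p = 0.053, 0.0657, 0.0654 and 0.251). Exons of VGLL4 overlap other genes on the opposite strand over 23.7% of their length. VGLL1 had 1 read in all, in ZFmut replicate 3.

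Of 20 Hippo kinases and upstream regulators, 5 were higher in ZFmut, 8 were lower and 7 did not pass, with a median log2 difference of -0.13. The 65.0% called stand beside 35.6% over all genes tested (17.2% higher, 18.4% lower). The atypical cadherins FAT4 and DCHS1, which bind each other across cells, moved in opposite directions. FAT4 was 1.49-fold lower, at 14.35 ± 0.591 CPM in ZFmut against 21.4 ± 0.732 CPM in WT (edgeR adjusted p = 1.82e-05). DCHS1 was 1.84-fold higher, at 14.2 ± 1.53 CPM in ZFmut against 7.71 ± 1.48 CPM in WT (edgeR adjusted p = 5.41e-05). The KIBRA proteins, which activate LATS kinases, also split. WWC1 was higher by 0.52 ± 0.06 on the log2 scale (edgeR adjusted p = 1.2e-05) and WWC2 lower at -0.36 ± 0.05 (0.000102), though 25.9% of the exonic sequence of WWC2 overlaps a gene on the other strand. MAP4K4, a kinase that can phosphorylate LATS in parallel to MST kinases, was lower at -0.27 ± 0.05 (edgeR adjusted p = 0.000511). The count of higher genes was 2 in place of 5 without WT replicate 1, 2 or 3 or without ZFmut replicate 3.

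A published signature of YAP and TAZ activity has 22 genes, of which CYR61, CTGF, ANKRD1, LATS2 and AMOTL2 are 5. PTPN14 belongs both to it and to the Hippo regulators above. At 0.16 (edgeR adjusted p = 0.0323) it is counted as higher in both. All 22 were tested, 11 were lower in ZFmut, 2 were higher and 9 did not pass, with a median log2 difference of -0.16. Without those 5 members, 7 of 17 were lower, 2 higher and 8 did not pass, and the median was -0.10. Of these 17, 52.9% were called, beside 35.6% of all genes tested (18.4% lower, 17.2% higher). The members that moved most did so in opposite directions. IGFBP3, which binds insulin-like growth factors, was 3.54-fold lower, at 28.3 ± 1.16 CPM in ZFmut against 100.8 ± 6.47 CPM in WT (edgeR adjusted p = 7.76e-11). AXL, a receptor tyrosine kinase, was 2.31-fold higher, at 331 ± 8.72 CPM in ZFmut against 143 ± 6.87 CPM in WT (edgeR adjusted p = 9.96e-10). RBMS3, an RNA-binding protein, was 1.92-fold lower, and GADD45A, a stress sensor of growth arrest, and CRIM1 were lower at -0.39 and -0.35 on the log2 scale (edgeR adjusted p = 1.2e-06, 0.000162 and 9.61e-05). The count of higher genes among the 17 was 1 without WT replicate 1, 2 or 3 or ZFmut replicate 3, and 4 without ZFmut replicate 1 or with the replicate block.

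Receptors of CCN proteins were lower or did not pass, with 7 of 10 lower and a median log2 difference of -0.35. In edgeR 0 were higher (0 also at an unadjusted p under 0.05), and 0 were higher in each alternative fit. Over all genes tested, 18.4% were lower in ZFmut, 17.2% were higher and the median was -0.004. The list was chosen with earlier results of these data known. SDC4, a heparan sulfate proteoglycan of focal adhesions to which CYR61 and CTGF bind, had 68.9 ± 0.378 CPM in ZFmut and 119 ± 5.43 CPM in WT (log2 difference -0.79 ± 0.05 SE, edgeR adjusted p = 3.97e-08). ITGAV and ITGB5, which form an integrin that binds CYR61, were lower at -0.51 ± 0.06 and -0.48 ± 0.05 (edgeR adjusted p = 9.28e-06 and 6.17e-06). NOTCH1, which NOV binds, was lower at -0.59 ± 0.07 and ITGA6, the laminin-binding alpha subunit that also serves CYR61 and CTGF, at -0.45 ± 0.07 (edgeR adjusted p = 1.82e-05 and 0.000107). ITGB1 and ITGB3 made up the rest of the 7, and 51.6% of the exonic sequence of ITGB3 overlaps another annotated gene on the same strand. ITGB3, at -0.22, lost its call when WT replicate 3, ZFmut replicate 2 or ZFmut replicate 3 was left out, at -0.17, -0.20 and -0.23 with edgeR adjusted p of 0.119, 0.065 and 0.058. ITGA5, LRP1 and LRP6 did not pass, at -0.09, 0.04 and -0.19. With the replicate block 9 of the 10 receptors were lower, since ITGA5 (-0.09) and LRP6 (-0.20) then passed (edgeR adjusted p = 0.0415 and 0.014). ITGA5 also passed after GC and length correction, at -0.17 with an edgeR adjusted p of 0.00189, and LRP6 also without ZFmut replicate 1 (-0.26, 0.00688) and with limma-voom (-0.21, 0.0453), while the GC and length correction put LRP6 at -0.08 (0.352) and turned LRP1 to -0.07 (0.136).

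CYR61, CTGF and ANKRD1 are also driven by SRF with its MRTF coactivators, which respond to actin. Of 10 genes on this axis, 1 was higher in ZFmut, 4 were lower and 5 did not pass, with a median log2 difference of -0.07. These counts stand beside a background of 35.6% of all genes tested called in either direction (17.2% higher, 18.4% lower). ACTG1, cytoplasmic actin, was lower at -0.26 ± 0.05 and VCL, vinculin of focal adhesions, at -0.22 ± 0.05 (edgeR adjusted p = 0.000687 and 0.00294); reads of ACTG1 are shared with near-identical actin genes and pseudogenes, and its value is less certain. FHL2 was lower at -0.16 and MYL9 at -0.21 (edgeR adjusted p = 0.0192 and 0.0344), but neither call held throughout. FHL2 lost it when WT replicate 1 or 3 was left out, at -0.14 and -0.15 with edgeR adjusted p of 0.0953 and 0.111, and with no filter (-0.15, 0.0709). MYL9 lost it when WT replicate 2, WT replicate 3 or ZFmut replicate 1 was left out, at -0.18, -0.22 and -0.11 with edgeR adjusted p of 0.121, 0.0759 and 0.114. The GC and length correction put MYL9 at -0.36, with an edgeR adjusted p of 1.56e-06. CNN1, a calponin of smooth muscle, was higher by 0.71 ± 0.19 with 2.37 CPM in ZFmut and 1.39 CPM in WT, a call that ended without ZFmut replicate 3 (0.69, edgeR adjusted p = 0.0591) and after thinning (0.72, 0.0663). Without WT replicate 3, 2 genes of the list were lower. After GC and length correction, with or without the replicate block, 6 were lower.

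**Figure D4:**
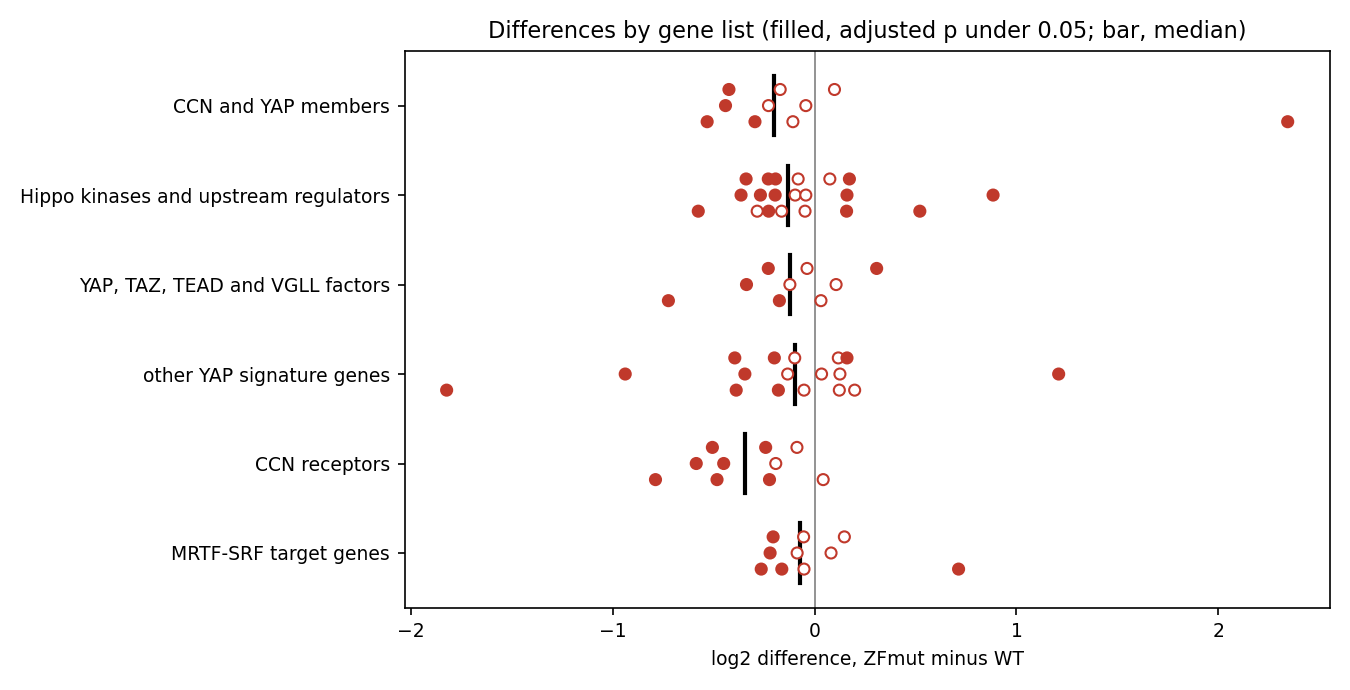
Log2 difference, ZFmut minus WT, of each tested gene by list; points are filled where edgeR's adjusted p is under 0.05, and the black bar is the median of the list. All lists have medians below 0, from -0.35 for CCN receptors to -0.07 for MRTF-SRF target genes, and WISP2, AXL and IGFBP3 are the points farthest out.

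Among 11244 protein-coding genes with a mean of at least 5 CPM, those with centred log2 profiles over the 6 libraries nearest to CYR61 were TIMP2, EPAS1 and CCNYL1, at Euclidean distances of 0.056, 0.078 and 0.078. Nearest to CTGF were SAMD12, PTPRE and SRGAP1, at 0.069, 0.077 and 0.093. Those of WISP2 lay farther away, with CPXM1 at 0.584, PDK4 at 0.741 and PTPRN at 0.845. This distance grows with the size of a difference, and WISP2 itself lay below the 5 CPM asked of candidates. Because the neighbours were picked on these same libraries, their log2 differences lie near that of the gene by construction. The values were -0.54, -0.53 and -0.48 for the neighbours of CYR61 and -0.395, -0.45 and -0.47 for those of CTGF. For those of WISP2 they were 2.13, 2.63 and 2.14.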

How the data were processed

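RNA-seq of Daoy cells gave 6 libraries, 3 ZFmut and 3 WT, which the sample titles assign to the groups. The authors deposited unnormalised counts per gene for 60554 Ensembl identifiers. The tools named are TopHat2 2.0.9, cutadapt, HTSeq and DESeq2 with GRCh38, per the submitters' processing notes, which give no order. The sources used here give neither the annotation release nor the strand setting of the counting, and the NEBNext Ultra kit named in the labels does not mark strand, so reads of overlapping genes on opposite strands cannot be told apart. The 5 closing lines of each file name no gene and were left out; 7.71 to 8.08% of reads were ambiguous between genes, 5.04 to 6.56% lay outside genes and 16.1 to 19.4% aligned to several places. GENCODE 29 matched 94.1% of identifiers; the rest held no more than 0.113% of any library's gene counts.

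The test was that of edgeR 4.0.16 in R 4.3.3 (TMM scaling, filterByExpr, two-sided quasi-likelihood F test, no covariates) over 18683 genes, with Benjamini-Hochberg adjustment over all of them. The biological coefficient of variation was 6.27%. Log2 differences are ZFmut minus WT. Members, lists and named genes were chosen with earlier results of these data known. The named genes are the members, ZBTB7B, WISP3, YAP1, WWTR1, TEAD1 to TEAD4, up to 5 called genes of each list by p, and the nearest profiles of CYR61, CTGF and WISP2. Further genes of lists were named after their values were seen. The functions were tested on simulated counts with known changes.

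Libraries with the same replicate number deviated together from their group means (r = 0.536, 0.309 and 0.322 for numbers 1 to 3). Between ZFmut and WT libraries with different numbers, r ran from -0.377 to 0.18. The numbers may therefore pair the libraries, which the labels do not say. The main fit left the number out, and a fit with the number as a block was an alternative. The other alternatives were RLE and upper quartile scaling, DESeq2 1.42.0, limma-voom (limma 3.58.1), no filter, a filter of 5 CPM in at least 3 libraries, loess correction for GC content and exon length (span 0.5, with and without the block, GC taken from GENCODE transcripts), thinning to 22236214 counts, and each library left out. All replicates differed by more than sampling noise (chi-square of 3.57 to 8.96 per degree of freedom), and all 6 libraries were kept.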

Additional observations from a re-analysis of the deposited data

How the results depend on the processing

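CYR61, CTGF and LATS2 kept their direction and their call in all 16 alternative fits, and WISP2 in the 15 that tested it. With the stricter filter, which WISP2 does not pass, 0 members were higher in place of 1, and 0 MRTF-SRF target genes were higher in place of 1. The count of lower members was 6 with the replicate block, which added AMOTL1 and LATS1. It was also 6 after GC and length correction with or without the block, but there AMOTL1 and AMOTL2 were added and LATS1 did not pass. It was 3 to 5 when a library was left out. With the replicate block, 4226 genes were higher and 4466 lower over all genes, against 3207 and 3442 without it, 4 other YAP signature genes were higher in place of 2, and 2 MRTF-SRF target genes were higher in place of 1. GC and length correction, with or without the block, also gave 2 higher MRTF-SRF target genes, and thinning gave 0. That correction gave 6 lower genes of this list in place of 4, with or without the block. When a library was left out, 2266 to 3934 genes were higher and 2504 to 3782 lower over all genes. Higher counts then ran from 2 to 5 for Hippo kinases and regulators, from 0 to 1 for YAP, TAZ, TEAD and VGLL factors, from 1 to 4 for other YAP signature genes and from 0 to 1 for MRTF-SRF target genes, whose lower count ran from 2 to 5. Among named genes that did not pass, WISP1 turned to 0.11 after thinning and AMOTL2 ran from -0.091 to 0.027 when a library was left out. TEAD1 turned to 0.07 after GC and length correction and to 0.069 with the block as well, and ran from -0.090 to 0.028 when a library was left out. TEAD3 turned to -0.12 after GC and length correction, to -0.13 with the block as well and to -0.005 after thinning, and ran from -0.021 to 0.081 when a library was left out. The cause was not tested. Among the members and the listed genes named in the text, the block changed the calls of AMOTL1, LATS1, YAP1, ITGA5 and LRP6, all of which then passed, and no other. The ratios kept their direction when a library was left out or the block was used, with log2 differences from -0.31 to -0.20 for LATS2 to LATS1, 0.02 to 0.12 for AMOTL2 to AMOTL1 and 0.06 to 0.13 for CTGF to CYR61. GC and length correction of both genes, chosen after seeing the data and without a test, gave -0.429 for LATS2 to LATS1 (-0.430 with the block), turned AMOTL2 to AMOTL1 to -0.068 (-0.071 with the block) and left CTGF to CYR61 at 0.078. LRP1 turned to -0.070 after that correction and to -0.069 with the block as well. Depth limits WISP1, with 6 to 61 reads a library, and WISP3.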
